A study of Mus musculus with 6 samples.

Results

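The genes of an interferon-gamma response were followed through 6 mouse tumors: the immunity-related GTPases Igtp, Iigp1, Tgtp and Ifi47, the guanylate-binding proteins Gbp2 and Gbp3, the regulators Irf1, Irf8 and Socs1, and the ligand gene Ifng itself. Members were the non-control probes whose name on the array, current or former, equals 1 of these 10 genes. They came to 14 probes and 23 spots per array, out of 27573 named genes, 41174 probes and 43379 non-control spots. Irf1, Irf8, Ifng and Tgtp each had 2 probes, and 1 of the Ifng probes was printed 10 times. Each gene is represented here by its probe of highest mean log intensity, and second probes are given beside it.

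The tumors grew in female C57Bl/6 mice after subcutaneous inoculation of Hepa1-6, a mouse hepatoma cell line. No treatment other than the inoculation is named, and the animals' age is not given in the sources used here. At day 15, 3 tumors were taken (303, 313 and 318), and 3 at day 10 (302, 307 and 312). Each tumor was measured on 1 Agilent array with 2 colours, with tumor RNA in Cy5 and, in Cy3, a common reference of total RNA from blood of an untreated female C57Bl/6 mouse. No dye swap was made, so a probe's dye bias stays in its ratio. The labels do not say which mouse a tumor came from, and a p-value here reflects variation among these samples alone, which may in part be technical. All day 15 arrays lay on 1 slide and all day 10 arrays on another, so slide and day cannot be told apart.

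Interferon-gamma is secreted by activated T cells and NK cells. It binds the receptor chains Ifngr1 and Ifngr2, and the kinases Jak1 and Jak2 then relay the signal to the nucleus, where genes are switched on through GAS elements. Irf1, itself induced early, binds interferon-stimulated response elements (ISRE) and carries the response further, while Socs1 inhibits the JAK kinases. The most strongly induced proteins of mouse cells include the immunity-related GTPases (IRG) and guanylate-binding proteins (GBP), which gather on the vacuoles of intracellular pathogens.

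The array of tumor 312 had an area of lost signal (7864 spots, 17.5% of the array). The single spots of Gbp2 and Gbp3 and 1 of the 10 spots of an Ifng probe lay in it. Tumor 313 stood apart from the other 5 in the markers of the inoculated cells. Over 8 hepatoma and hepatocyte markers its median log2 ratio of tumor over reference was -1.56, against 2.53 to 3.78 in the other 5 tumors. Its summed Cy5 signal over those markers was 103310, against 947050 to 1268100. Above background were 5 of the 8 there, and all 8 in each other tumor. Alpha-fetoprotein (Afp) had a log2 ratio of -4.75 in tumor 313 and of 2.22 to 3.25 elsewhere, and albumin (Alb) -2.48, against 2.26 to 3.06. Gpc3 did not follow them, at 5.13 in tumor 313 and 4.73 to 5.48 elsewhere. Samples are called by their labels, and whether the sample labelled 313 is what its label says was not tested. Results that rest on it are therefore given with and without it.

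Promoters of the members are shown first, because GAS and ISRE letters are the elements through which the interferon-gamma response is known to act. RefSeq promoter windows (GRCm38.p6, 250 bases before to 50 bases after a start site) were found for 9 members, Tgtp being matched to its near-identical copies Tgtp1 and Tgtp2, which the probes may not tell apart. Iigp1 was not analysed here for sequence. Searched on both strands, the ISRE core GAAANNGAAA lay in 3.44% of the 32851 RefSeq promoter windows and the GAS letters TTCNNNGAA in 8.3%. The ISRE core lay in the windows of Igtp, Tgtp1, Tgtp2, Gbp2, Gbp3 and Socs1, and the GAS letters in those of Igtp, Tgtp1, Tgtp2, Irf1, Irf8 and Ifng. The Ifi47 window held neither, nor did the window of the second start site of Gbp3, Irf1 and Irf8, so the first is shown for these. In Igtp, Tgtp1 and Tgtp2 both were present with the ISRE core starting 2 bases after the GAS letters. A match is a description of the letters and not a measured binding site. In the 120 bases printed for each, 5′ to 3′ along the gene's strand, capitals mark the matches, and the position is that of the printed bases.
Igtp, chr11:58199461-58199580, plus strand: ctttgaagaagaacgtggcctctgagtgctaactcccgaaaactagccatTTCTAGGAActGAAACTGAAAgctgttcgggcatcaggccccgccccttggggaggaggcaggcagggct
Tgtp1, chr11:48992265-48992384, minus strand: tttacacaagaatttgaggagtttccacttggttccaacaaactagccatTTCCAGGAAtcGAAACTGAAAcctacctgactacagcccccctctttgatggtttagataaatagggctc
Tgtp2, chr11:49064224-49064343, minus strand: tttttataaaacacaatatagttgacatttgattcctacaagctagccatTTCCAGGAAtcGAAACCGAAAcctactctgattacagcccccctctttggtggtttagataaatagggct
Gbp2, chr3:142620549-142620668, plus strand: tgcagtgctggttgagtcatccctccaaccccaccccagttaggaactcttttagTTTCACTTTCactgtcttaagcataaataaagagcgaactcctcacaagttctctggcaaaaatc
Gbp3, chr3:142559947-142560066, plus strand: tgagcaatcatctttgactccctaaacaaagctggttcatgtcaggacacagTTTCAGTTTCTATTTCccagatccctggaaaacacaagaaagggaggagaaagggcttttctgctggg
Irf1, chr11:53769868-53769987, plus strand: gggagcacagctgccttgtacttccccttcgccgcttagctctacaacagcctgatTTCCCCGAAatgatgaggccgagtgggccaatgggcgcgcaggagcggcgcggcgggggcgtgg
Irf8, chr8:120736140-120736259, plus strand: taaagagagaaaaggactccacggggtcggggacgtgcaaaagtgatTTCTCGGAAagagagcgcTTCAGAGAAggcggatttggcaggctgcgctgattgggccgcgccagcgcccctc
Socs1, chr16:10785552-10785671, minus strand: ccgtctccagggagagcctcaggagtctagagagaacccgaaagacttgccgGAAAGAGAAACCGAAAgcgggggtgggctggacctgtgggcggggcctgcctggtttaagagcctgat

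All 10 genes were higher in the tumors than in the blood reference. Log2 ratios of tumor over reference, averaged over both days, lay between 2.25 for Ifi47 and 6.12 for Igtp, with a median of 4.62, while the median over all 16305 genes tested was 0.22. Each passed limma's test with an adjusted p of 3.93e-05 or lower and a log2 ratio of at least 1. Of all genes tested, 25.5% were called higher and 9.76% lower by the same thresholds, and 0 of the 10 members were lower. Without tumor 313 all 10 were still called higher, with a median of 4.84. In bulk RNA, a larger number of cells of a type and more RNA per cell cannot be told apart, and how far blood samples differ among themselves is not part of the test. Each ratio is relative to the probe's own reference signal, so ratios of different genes do not rank their expression.

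Igtp (Irgm3), a regulatory IRG that controls the effector IRGs, had log2 ratios of 6.49, 4.13 and 6.55 in day 15 tumors 303, 313 and 318, against 6.55, 6.50 and 6.49 in day 10 tumors 302, 307 and 312. The other 5 tumors lay within 0.07 of each other, and tumor 313 lay 2.36 log2 units under the lowest of them, a 5.12-fold lower ratio. Tumors exceeded the reference by 69.4-fold (log2 ratio 6.12 ± 0.32, SE, 6 tumors; limma adjusted p = 1.08e-05).

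Iigp1 (Irga6), an effector IRG that coats the vacuole of Toxoplasma, had log2 ratios of 6.11, 3.60 and 6.54 in tumors 303, 313 and 318 at day 15, against 6.45, 6.26 and 6.23 in tumors 302, 307 and 312 at day 10. Tumor 313 was again the low one, 2.52 under the next. The average ratio was 58.3-fold (log2 5.86 ± 0.37, SE; limma adjusted p = 2.30e-05).

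Tgtp (Irgb6), a further effector IRG, gave 4.62, 2.47 and 4.98 at day 15, against 4.92, 4.82 and 4.66 at day 10. Tumor 313 was 2.15 under the next tumor, a 4.43-fold lower ratio. The second Tgtp probe was dim, with Cy3 not well above background on any array and Cy5 above it on 2 of 3 day 15 and 3 of 3 day 10 arrays, so tumors exceeded the reference at least 4.0-fold there. Its log2 ratios, 2.64, 0.40 and 3.09 at day 15 against 2.68, 2.35 and 2.45 at day 10, also put tumor 313 lowest.

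Ifi47 (Irgd), the IRG with no GAS or ISRE letters in its window, had log2 ratios of 2.35, 1.26 and 2.23 at day 15, against 2.57, 2.74 and 2.32 at day 10. Tumor 313 lay 0.97 under the next tumor. Its average excess over blood was 4.74-fold (log2 2.25 ± 0.16, SE; limma adjusted p = 3.55e-05).

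Gbp3, a guanylate-binding protein, had log2 ratios of 6.20, 4.75 and 6.45 at day 15, against 6.51, 6.29 and 6.06 at day 10. Tumor 313 lay 1.31 under the next tumor, which was 312, where the spot was inside the area of lost signal.

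Gbp2, which acts with other GBPs on pathogen vacuoles, gave log2 ratios of 5.20, 4.60 and 4.82 at day 15, against 4.93, 4.82 and 4.53 at day 10, so that by the ratio tumor 313 was not the lowest. The only lower tumor was 312, whose Gbp2 spot lay in the area of lost signal. Tumor 313 minus the lowest of the others was 0.07, and other settings, chosen after seeing the data, moved it both ways. It was -0.22 with that area left out, -0.32 with the scanner's processed signals and -0.06 with median centring. Without background correction it was 0.32, and in the tumor dye alone 1.33. Both dyes of this spot varied together between arrays. The log2 Cy5 signal was 15.74, 13.71 and 16.16 in tumors 303, 313 and 318, against 16.72, 16.41 and 12.38 in tumors 302, 307 and 312. The log2 Cy3 signal, from a reference labelled alike on every array, was 10.54, 9.11 and 11.34 on the day 15 arrays, against 11.79, 11.58 and 7.85 on the day 10 arrays. Without array 312 that Cy3 signal still ranged over 2.68 log2 units, while the median range over all genes on those arrays was 0.19. Why the reference signal varied was not tested, and the Gbp2 ratio is the least certain of the 10.

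**Figure D1:**
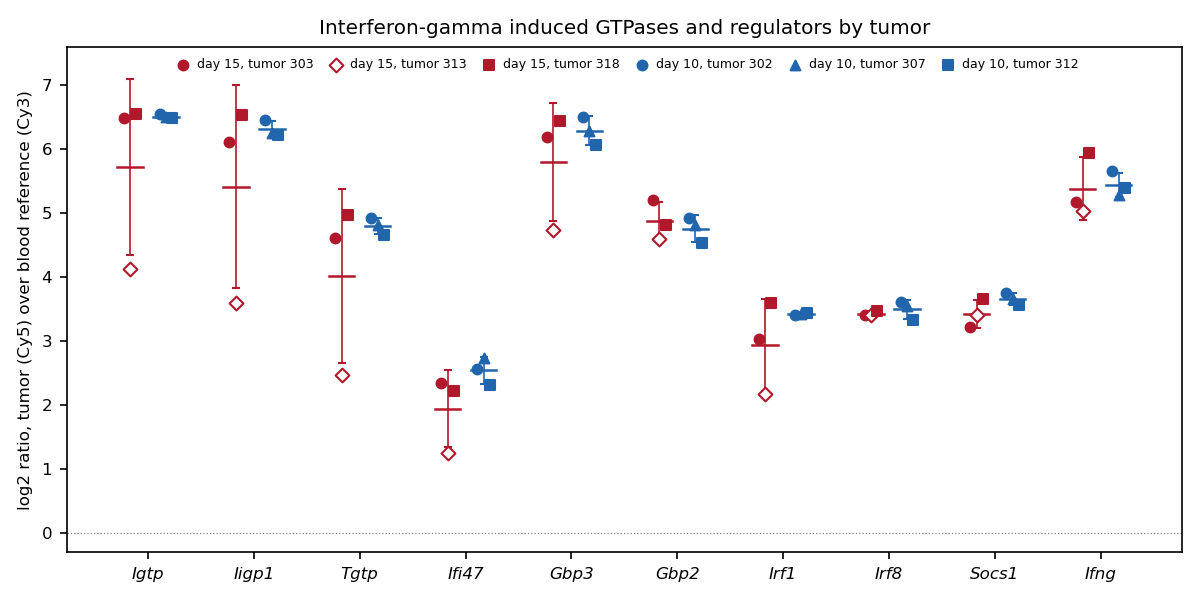
Log2 ratio of tumor (Cy5) over blood reference (Cy3) for each gene. Each point is 1 tumor, with day 15 in red left of day 10 in blue, bars give the day's mean and SD (n = 3 each), and tumor 313, the open diamond, lies at 4.13 for Igtp, 3.60 for Iigp1 and 2.47 for Tgtp, under all 5 other tumors.

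Among the regulators, Irf1, the transcription factor that is both a target and an amplifier of the response, had log2 ratios of 3.04, 2.18 and 3.60 at day 15, against 3.42, 3.43 and 3.44 at day 10. The day 10 tumors lay within 0.02 of each other, and the day 15 tumors lay on both sides of them. The second Irf1 probe had 2.09, 0.66 and 2.18 at day 15, against 2.53, 2.46 and 2.08 at day 10, with tumor 313 lowest on both probes. Tumors exceeded blood by 9.08-fold on the first probe (log2 3.18 ± 0.17, SE; limma adjusted p = 1.29e-05).

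Irf8, a transcription factor of the macrophage and dendritic cell lineages, varied least of all members. Its log2 ratios were 3.41, 3.42 and 3.47 at day 15, against 3.62, 3.55 and 3.33 at day 10, and tumor 313 stood between the others. The whole range was 0.28 log2 units, a 1.22-fold spread. The second Irf8 probe did put tumor 313 lowest, at 2.06, with 2.45 and 2.58 in tumors 303 and 318, against 2.74, 2.58 and 2.35 at day 10.

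Socs1, the inhibitor of JAK kinases, had log2 ratios of 3.23, 3.41 and 3.66 at day 15, against 3.75, 3.65 and 3.56 at day 10. Tumor 303, not tumor 313, was the lowest. The excess over blood was 11.7-fold (log2 3.54 ± 0.08, SE; limma adjusted p = 3.59e-07).

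Ifng, the ligand, had log2 ratios of 5.18, 5.03 and 5.95 at day 15, against 5.65, 5.29 and 5.40 at day 10. Tumor 313 was the lowest by 0.14, and tumor 318 the highest. With the scanner's processed signals, a setting chosen after seeing the data, tumor 313 lay 0.24 above the lowest of the others instead. The average ratio was 42.7-fold (log2 5.42 ± 0.13, SE; limma adjusted p = 4.83e-07), on a probe whose Cy3 signal was above background on 4 of 6 arrays. On the arrays of tumors 303 and 313 it was not, so the ratios of these tumors rest on a dim reference. The probe printed 10 times gave 3.62, 3.57 and 4.15 at day 15, against 4.11, 3.93 and 3.50 at day 10, and there tumor 312 was the lowest. In the tumor dye alone, log2 Cy5 was 11.71, 11.76 and 13.60 in tumors 303, 313 and 318, against 13.18, 12.71 and 13.71 at day 10. The reference dye of the same probe was 6.53, 6.73 and 7.65 on the day 15 arrays, against 7.53, 7.41 and 8.31 on the day 10 arrays, so tumors 303 and 313 had the lowest signal in both dyes.

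**Figure D2:**
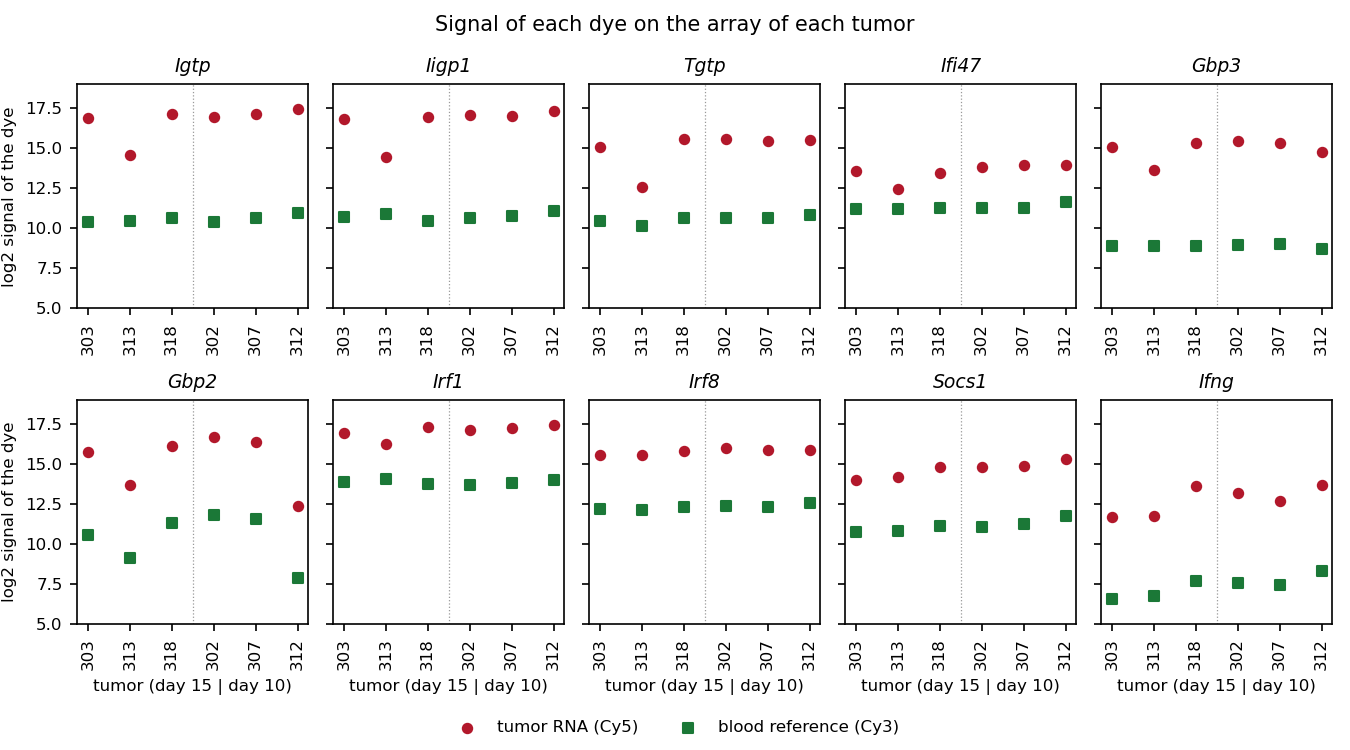
Log2 signal of tumor RNA (Cy5, red circles) and of the blood reference (Cy3, green squares) for each gene on the array of each tumor, day 15 tumors left of the dotted line and day 10 tumors right of it. For Igtp the reference signal stayed between 10.39 and 10.96 while the tumor signal was 14.57 in tumor 313 and 16.88 or more elsewhere, whereas for Gbp2 and Ifng both dyes moved together between arrays.

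Between the days no member passed the test. In limma's fit over 15803 genes, 9 genes (0.057%) were called in either direction, 0 of them members, and each member had an adjusted p of 0.999. At an unadjusted p of under 0.05 the number of members was also 0. The 2 days overlapped for all 10 members, that is 0 without overlap, while 9.14% of all genes had none. The mean at day 15 was lower for 9 of 10 members, Gbp2 being the exception, and for 45% of all genes.

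The log2 change of day 15 minus day 10 was -0.79 for Igtp (95% interval -2.35 to 0.76), -0.90 for Iigp1 (-2.69 to 0.89) and -0.78 for Tgtp (-2.32 to 0.76). These wide intervals go with the SD between day 15 tumors, 1.38 for Igtp, against 0.03 between day 10 tumors (n = 3 each). Ifi47 had -0.60 (-1.36 to 0.16), Gbp3 -0.49 (-1.58 to 0.60) and Irf1 -0.49 (-1.34 to 0.36). The narrowest intervals belonged to Irf8, at -0.07 (-0.41 to 0.26), and Socs1, at -0.22 (-0.61 to 0.16). For Ifng the change was -0.06 (-0.72 to 0.59) and for Gbp2 0.11 (-0.39 to 0.61).

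The lower day 15 means of Igtp, Iigp1, Tgtp and Gbp3 rested on tumor 313. Without it the change was 0.0035 for Igtp, 0.0095 for Iigp1, -0.0033 for Tgtp, 0.035 for Gbp3 and -0.26 for Ifi47, and the median over the 10 members was 0.00012, against -0.49 with it. For Irf1 the change without it was -0.11 and for Ifng 0.11. Markers of skeletal muscle, a tissue under the skin, moved with the day: their median log2 ratio was -0.04, 0.03 and 0.02 in tumors 303, 313 and 318, against 4.19, 3.59 and 4.13 in tumors 302, 307 and 312, with 1 to 3 of 6 above background at day 15 and all 6 at day 10. Their part in the members' changes was not tested. No member passed the test without tumor 313 either, the smallest adjusted p being 0.955.

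**Figure D3:**
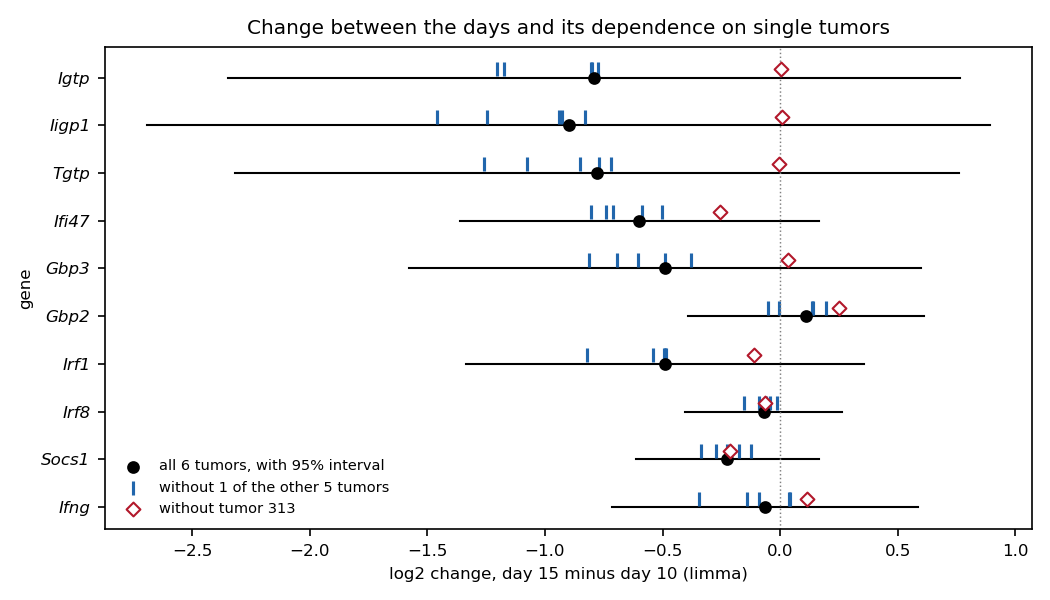
Log2 change of day 15 minus day 10 for each gene with its 95% interval from limma (black), the change with 1 of the other 5 tumors left out (blue ticks) and with tumor 313 left out (open red diamonds). Every interval crosses 0, and without tumor 313 the changes of Igtp, Iigp1 and Tgtp lie at 0.0035, 0.0095 and -0.0033.

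In tumor 313, 7 of the 10 members had their lowest ratio, as did 31% of all 12953 genes measured in every tumor. For counts of this kind a gene stands by its brightest probe with Cy5 above background on every array, which for some genes outside the member list is not the probe whose values are given. Of the members, 4, Igtp, Iigp1, Tgtp and Gbp3, lay at least 1 log2 unit under every other tumor, as did 2.9% of all genes. For 5 members, these 4 and Ifi47, the gap under the next tumor divided by the range over all 6 exceeded Dixon's 95% critical value, as it did with tumor 313 lowest for 6.25% of all genes. The median log2 ratio of the members was 3.51 in tumor 313, with 4.90 in each of tumors 303 and 318, against 4.93, 4.82 and 4.60 in tumors 302, 307 and 312. Their summed Cy5 signal was 234230 in tumor 313 and 566080 to 729120 in the other 5.

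The marker lists of other cells given here did not have their lowest median in tumor 313. Over 8 T cell markers, of which Cd4 was not above background on any array, the median log2 ratio was 4.45 in tumor 313, the highest of the 6, with 1.56 to 4.33 elsewhere. The value of 1.56 was that of tumor 312, where the single spots of Cd3d, Cd3e and Cd8b1 and 2 of the 10 spots of Cd4 lay in the area of lost signal. The summed T cell Cy5 signal was 81398 in tumor 313, with 22165 to 95019 elsewhere. Over 8 macrophage and monocyte markers the median was 4.93 in tumor 313 and 4.20 to 4.84 elsewhere, with summed signals of 210040 and of 89887 to 204560. The NK and cytotoxic lymphocyte list of 8 genes had 3.88 in tumor 313 and 2.997 to 4.04 elsewhere, but its summed Cy5 signal was 40666 in tumor 313, with 18548 and 64984 in tumors 303 and 318, against 69351, 78155 and 94595 at day 10. The part of the low hepatoma markers in the low GTPase values of tumor 313 was not tested.

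The other guanylate-binding proteins followed Gbp3. All 7 genes measured were called higher than the reference (median log2 ratio 4.49), 0 were called between the days by limma, none of them had an unadjusted p of under 0.05, and all 7 had a lower mean at day 15. Tumor 313 was the lowest for all 7, by 1 log2 unit or more for 5. Gbp5, which takes part in inflammasome activation, had 4.42, 3.78 and 6.18 at day 15, against 6.15, 6.19 and 5.55 at day 10, so that tumor 303 was low as well. Its reference signal was not well above background on any array, and tumors exceeded it at least 32.6-fold. Gbp7 had 4.50, 2.84 and 5.04 at day 15, against 5.05, 4.97 and 4.54 at day 10, Gbp6 5.21, 3.37 and 5.74, against 5.42, 5.29 and 5.38, and Gbp8 4.93, 3.17 and 4.86, against 4.56, 4.57 and 5.01. Gbp9 was the 1 gene of the list whose days did not overlap, as was so for 9.14% of all genes. It had 3.62, 2.24 and 3.56 at day 15, against 4.07, 4.02 and 3.73 at day 10. Without tumor 313, 3 of the 7 had a lower mean at day 15.

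Of the other IRG and related GTPases, 4 of 6 tested were called higher than the reference, none was called between the days, and all 6 had a lower mean at day 15 (5 of 6 without tumor 313). Irgm1, a regulatory IRG also needed in autophagy, had 2.45, 0.71 and 2.89 at day 15, against 2.90, 2.77 and 2.70 at day 10, and Irgm2 4.59, 3.24 and 4.32, against 4.46, 4.36 and 4.23. The giant GTPase Gvin1 moved less, with 4.99, 4.48 and 4.77 at day 15, against 5.29, 5.17 and 4.62 at day 10. The 4.62 was that of tumor 312, where its single spot lay in the area of lost signal. Gm12250 (Irgb10) and Gm4951 were dim, with Cy3 not well above background on any array, and had at least 2.44-fold and at least 1.29-fold more signal in tumors.

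**Figure D4:**
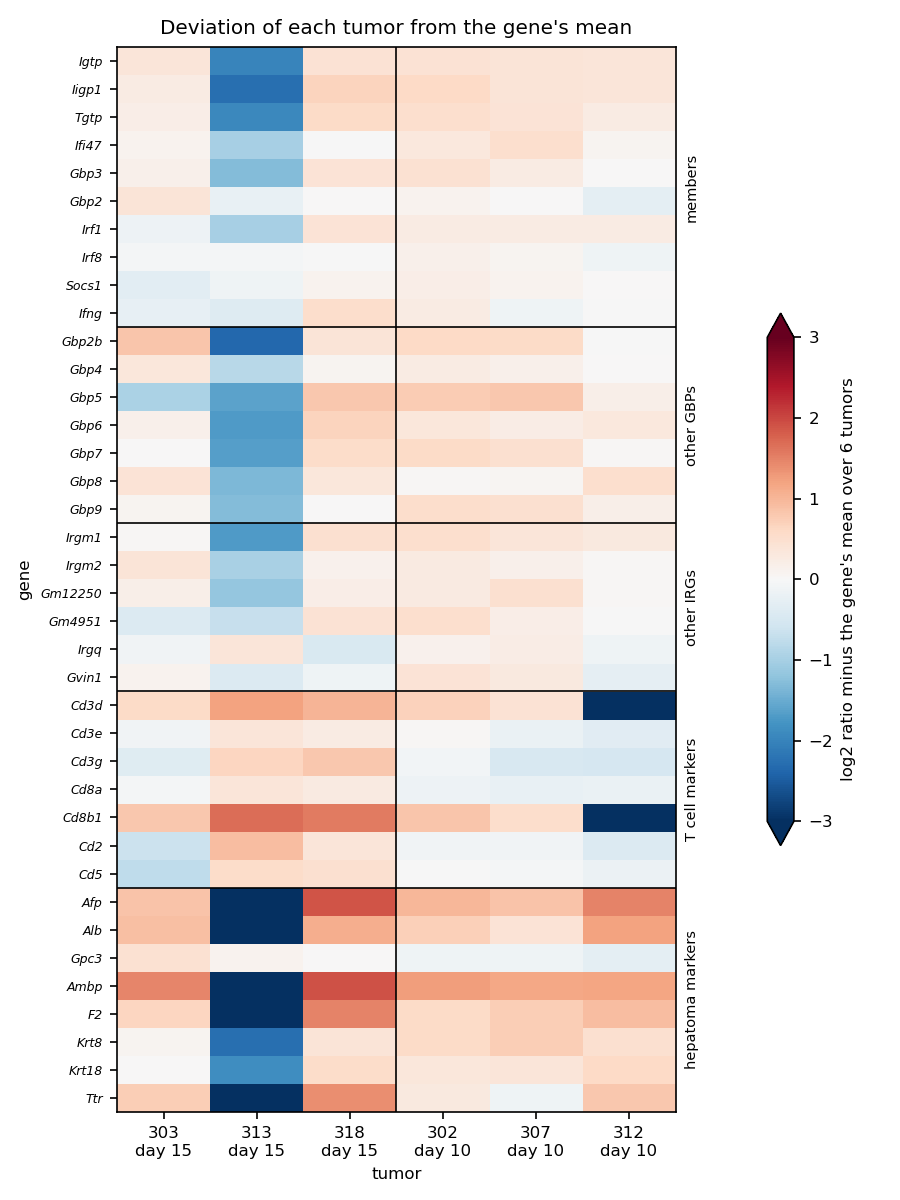
Log2 ratio of each gene in each tumor minus the gene's mean over the 6 tumors, blue below and red above the mean, with colours ending at 3 log2 units; rows are the 10 members, the other GBP and IRG genes, and T cell and hepatoma markers. The column of tumor 313 is low over most of the GTPases and over 7 of the 8 hepatoma markers and is not low over the T cell markers; Cd3d, Cd3e and Cd8b1 had their spots on array 312 in the area of lost signal.

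Of the receptor and JAK-STAT genes, 6 of 7 were called higher than the reference and Jak2 lower (log2 ratio -1.02). None was called between the days. Stat2, which acts with Irf9 downstream of type I interferon, had 3.31, 3.104 and 3.16 at day 15, against 3.84, 3.81 and 3.22 at day 10. The receptor chains went the other way in tumor 313. Ifngr1 had 1.08, 1.59 and 1.17 at day 15, against 0.92, 1.06 and 0.94 at day 10, and Ifngr2 1.96, 3.01 and 1.43, against 1.95, 1.93 and 1.73, both highest in tumor 313.

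Among 7 other IRF genes, 5 were called higher than the reference. Irf7, which amplifies type I interferon production, averaged 3.21 with a change between the days of -0.60, Irf5 3.21 with 0.13 and Irf9 2.85 with -0.09, and none was called between the days. Of 11 other SOCS genes and JAK-STAT phosphatases, 4 were higher than the reference and 1, Socs7, lower, with 0 called between the days. The highest were Cish at a log2 ratio of 2.70, the phosphatase Ptpn6 at 2.69 and Socs3 at 1.84, and tumor 313 was the lowest for 0 of the 10 measured in every tumor.

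Of 12 tested genes that drive Ifng transcription, 9 were called higher than the reference and none was called between the days. Tbx21 (T-bet), the T helper 1 transcription factor, had 4.74, 6.13 and 5.78 at day 15, against 5.37, 5.11 and 4.97 at day 10, highest in tumor 313. Ebi3, a subunit of interleukin 27, had 4.84, 4.36 and 4.04 at day 15, against 4.48, 4.25 and 3.89 at day 10. The interleukin 18 receptor chain Il18r1, whose reference signal was not well above background, was at least 12.2-fold higher in tumors, with 2.91, 5.13 and 4.67 at day 15, against 4.45, 4.23 and 4.62 at day 10.

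Of 21 other genes induced by interferon-gamma, 18 were called higher than the reference and none was called between the days, though 2, Nos2 (change -0.65) and Cd274, which encodes PD-L1 (change -0.69), had an unadjusted p of under 0.05 with an adjusted p of 0.999. The reference signal of Nos2 was not well above background on any array, and tumors exceeded it at least 1.999-fold. Tumor 313 was the lowest for 13 of the 20 measured in every tumor, by 1 log2 unit or more for 3. Of all genes, 31% had their lowest ratio there, and 2.9% by 1 log2 unit or more. Over these 20 the median of tumor 313 minus the lowest of the others was -0.15. The chemokine Cxcl9 had 5.49, 5.04 and 5.49 at day 15, against 5.53, 5.35 and 5.12 at day 10, lowest in tumor 313 by 0.08. Both dyes of its spot moved together between arrays. Log2 Cy5 was 13.87, 12.3 and 15.56 in tumors 303, 313 and 318, against 15.74, 15.77 and 15.64 at day 10. Log2 Cy3 was 8.38, 7.25 and 10.07, against 10.21, 10.41 and 10.52. Without array 312 the Cy3 signal ranged over 3.16 log2 units, so this ratio is uncertain. Why the reference signal varied was not tested. Cxcl10, named after its values were seen, had 2.92, -0.03 and 4.72 at day 15, against 4.26, 4.38 and 4.17 at day 10. Tap1, of the peptide transporter, had 3.25, 2.19 and 3.28 at day 15, against 3.38, 3.57 and 3.50 at day 10. The macrophage Fc receptor gene Fcgr1 had 4.84, 4.93 and 4.57 at day 15, against 4.66, 4.77 and 4.35 at day 10. Its Cy3 signal ranged over 1.40 log2 units without array 312, so the Fcgr1 ratio is uncertain as well.

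Of 19 genes of the type I interferon response, which overlaps the interferon-gamma response, 17 were called higher than the reference and none was called between the days, 2 (Ifit2 and Usp18) having an unadjusted limma p of under 0.05 and an adjusted p of 0.999. Of the list, 17 had a lower mean at day 15, and 16 still did without tumor 313, the median change then being -0.28, against -0.41 with it. Ifit2 had 1.75, 0.75 and 1.43 at day 15, against 2.68, 3.17 and 1.59 at day 10. Rtp4 had 5.75, 4.44 and 4.73 at day 15, against 6.20, 6.26 and 4.80 at day 10.

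The genes outside the member list whose profile over the 6 tumors was nearest to the members' mean profile were sought among 4322 candidates. Likeness was the root mean square difference of log2 ratios after each gene's mean over the 6 tumors was taken away. Rbpms, Ebag9, Rab4a, Fzd10 and Tatdn1 were among the 6 nearest, at 0.09 to 0.10 log2 units. The members themselves lay at 0.12 (Irf1) to 0.56 (Iigp1). All 6 profiles share the low value of tumor 313.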

How the data were processed

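RNA of 6 tumors was measured on 2-colour arrays, 1 per tumor. Per the file headers, the deposited intensity values (mean signal and local background of each spot and dye) were made with Agilent Feature Extraction 9.1.3.1, which also wrote processed signals after detrending and LOWESS dye normalization. The log10 ratios in the value table deposited by the authors equalled the scanner files' log ratios, with a median of 0 in every column. No genome build is named, and columns left unused numbered 0. In limma 3.58.1 (R 4.3.3), intensities were background-corrected by normexp (offset 50), log2 ratios were loess-normalized within arrays, control and outlier spots were left out, and spots of a probe averaged. Probes were named through RefSeq tables (GRCm38.p6): 23374 by accession, 6733 by current and 2919 by older symbol, with 8148 names kept. Day 15 and day 10 tumors were compared by lmFit and eBayes where Cy5 was well above background on at least 3 of 6 arrays; tumor was set against reference by testing the mean of both days against 0, where either dye was. Tests are 2-sided with Benjamini-Hochberg adjustment over all genes and a threshold of 0.05, and a log2 ratio of at least 1 against the reference. A gene dim in 1 dye on all arrays is given a bound, the bright dye's mean against the higher of the dim signal and the lowest signal well above background, without balanced swaps of the dyes. The fit between the days was tested on simulated data with known changes in sets of 50 genes. At an adjusted limma p of under 0.05 it recovered 34% of log2 changes of 1 and 86% of changes of 2. It also made 11 false calls. With 34% of log2 changes of 1 recovered, changes of the size seen for the members could be missed. The changed genes were drawn at random and kept their own SD, so these shares need not hold for members of wide spread. Named genes are all members and, per list, up to 3 of smallest p between the days and 3 of largest absolute ratio, plus 6 of nearest profile; others are said to be chosen after their values were seen. Alternatives concerned background, normalization, the value table, filters, probes, the area of lost signal, array position, left-out tumors and the tumor dye alone. The members and lists were chosen with earlier results of these data known. The precision is limited by the number of arrays. Some results for single genes are not reported here.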

Additional observations from a re-analysis of the deposited data

Results flagged for a closer look

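For 5 of the 10 members the value of tumor 313 lay far from the other 5, its gap to the nearest tumor divided by the whole range exceeding Dixon's 95% critical value for 6 samples. The log2 ratios in tumor 313 were 4.13 for Igtp (gap over range 0.973), 3.60 for Iigp1 (0.856), 2.47 for Tgtp (0.856), 4.75 for Gbp3 (0.744) and 1.26 for Ifi47 (0.654). Chance alone marks about 1 in 20 such groups, counting any tumor at either end. Tumor 313 was low in this way for 6.25% of all 12953 genes measured in every tumor. That share counts only this tumor and only low values, so it cannot be set against the 1 in 20. The 5 genes share the tumor and its array. Beside these values stand the low hepatoma markers of tumor 313, with a median log2 ratio of -1.56, and its high T cell markers, with 4.45. Their part in the gaps was not tested.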

How the results depend on the processing

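The counts of members called (10 higher than the reference, 0 lower, 0 between the days) were the same under every alternative run, with each tumor left out in turn as well. Over all genes, those called between the days numbered 9, and 1 when all 6 arrays had to be above background, 3 with array position as a block, 0 with the tumor dye alone and 2 to 26 with single tumors left out (26 without 307). The slide could not be fitted as a block, because each day lay on a slide of its own. No paired analysis was possible because the tumor numbers of the days are not shared. All 150 alternative log2 ratios against the reference kept their direction and call. Of the alternative changes between the days, 146 kept their direction and 14 turned it. For Gbp2 the change was -0.24 with the scanner's processed signals and with the value table, -0.32 with median centring and -0.0050 without the area of lost signal. Ifng had 0.34 with processed signals and with the value table. With single tumors left out, Gbp2 ranged between -0.054 and 0.25 (-0.054 without 303, -0.0050 without 312) and Ifng between -0.35 and 0.11 (0.11 without 313, 0.040 without 303, 0.039 without 302). Gbp3 ranged between -0.81 and 0.035, Igtp between -1.21 and 0.0035 and Iigp1 between -1.46 and 0.0095, each highest without 313 and lowest without 318. Irf1 was -0.82 and Tgtp -1.26 without 318, where 1 member had an unadjusted p of under 0.05 and the smallest adjusted p was 0.358. In the tumor dye alone the change was -0.75 for Ifng and -0.68 for Socs1, against -0.06 and -0.22 by the ratio. Median centring without loess moved the median change of all genes to -0.30, against 0.02, and that of the members to -0.86, with 4 members at an unadjusted p of under 0.05 and a smallest adjusted p of 0.204. In settings chosen after seeing the data, the distance of tumor 313 under the next tumor stayed between 2.35 and 2.44 log2 units for Igtp, 2.43 and 2.57 for Iigp1, 2.0997 and 2.52 for Tgtp, and 0.99 and 1.496 for Gbp3. Ratios rest on the dim reference signal of Ifng on 2 arrays and of the second Tgtp probe on all 6.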

Other observations

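The NK and cytotoxic lymphocyte list had its lowest median in tumor 303, 2.997, with 3.88 and 3.65 in tumors 313 and 318, against 4.04, 3.99 and 3.80 at day 10. Genes named next were chosen after their values were seen. Stat4, which carries interleukin 12 signals, had a log2 ratio of 2.56 in tumor 303, with 4.54 and 3.86 in tumors 313 and 318, against 3.83, 3.96 and 3.57 at day 10. The reference signal of Stat4 was well above background only on the array of tumor 313, so its other ratios rest on a dim reference. The interleukin 2 receptor chain Il2rb had 2.81, 4.44 and 4.04 at day 15, against 3.88, 3.97 and 3.89 at day 10. Il18 did otherwise, at 2.17 in tumor 303, the highest of the 6. The ratio of Il12rb1 was 4.24 in tumor 303 and was lowest in tumor 313, at 3.35. Its log2 Cy5 in tumor 303, 13.47, was under that of every tumor but 313. Its reference dye ranged over 1.24 log2 units without array 312. Socs1 was lowest in tumor 303 as well, at 3.23, and Igtp there was 6.49, against 6.49 to 6.55 at day 10.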
